A study of Mus musculus with 27 samples.

Results

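The suppressor of cytokine signalling (SOCS) family was followed through all 27 RNA-seq libraries by its 8 members, Cish and Socs1 to Socs7, out of 22524 genes in the count tables. The members were taken by gene symbol from the Ensembl identifiers, and all 8 were found. Jejunal crypts of 9 wild-type male C57BL/6 mice, 8 to 12 weeks old, gave 9 organoid cultures that were grown to passage 5 to 8. The mice lived in the specific pathogen-free (SPF) facilities SR and SE or, germ-free, in GF, with 3 mice from each, which were cohoused littermates within a facility. m-ICc12, an immortalised epithelial line from the murine small intestine, and mouse embryonic fibroblasts (MEF, C57BL/6) served as reference cultures, with 3 cultures each. From every organoid and m-ICc12 culture came a pair of libraries, one of them labelled untreated and the other TNF-treated (murine TNF at 5 ng/mL for 8 hr), whereas MEF were sequenced untreated only. The organoid cultures came from separate mice. For the m-ICc12 and MEF cultures nothing stated how far the replicates were independent, so that the spread between them may be technical. Each p-value rests on a single spread per gene, pooled over all libraries of its fit. In comparisons with organoids this is largely the spread between organoid libraries. In fits of m-ICc12 and MEF libraries only, the p-values measure only the spread between these cultures.

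SOCS proteins are the feedback brake of cytokine signalling. A cytokine receptor activates Janus kinases (JAKs), these phosphorylate STAT transcription factors, and STATs switch on Cish and several Socs genes. The proteins bind phosphorylated receptors or JAKs through an SH2 domain and carry a SOCS box that recruits elongins and a cullin ubiquitin ligase. In the intestinal epithelium the family is known for restraining responses to growth hormone, the IL-6 family, IL-22 and interferon.

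The RefSeq promoter windows (GRCm38.p6, 250 bases before to 50 bases after the start site) of Cish, Socs1 and Socs3 held letter patterns of cytokine-responsive promoters, and these stretches are shown because the 3 genes are textbook cytokine-induced members. The table had a window for 4 of the 8 members (Cish, Socs1, Socs3 and Socs4). Capitals mark the STAT pattern TTCNNNGAA in Cish and Socs3 and the interferon-response pattern in Socs1, which is GAAA, 2 bases of any kind and GAAA again.
Cish, chr9:107296655-107296682, plus strand: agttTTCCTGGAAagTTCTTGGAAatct
Socs3, chr11:117969502-117969530, minus strand: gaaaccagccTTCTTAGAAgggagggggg
Socs1, chr16:10785598-10785625, minus strand: ttgccgGAAAGAGAAACCGAAAgcgggg
The Cish matches began at positions 1 and 12 counted from the start site, in the untranslated part of an exon of a protein-coding Cish transcript (GENCODE vM21). The Socs3 match began at position -154, in an intron of a non-coding Socs3 transcript. In Socs1, 2 overlapping matches began at positions -83 and -77, outside every annotated transcript. On both strands, the STAT pattern was found in 8.3% of the 32851 RefSeq promoter windows and the interferon-response pattern in 3.44%. None of the 4 windows held the NF-kB pattern (GGG, 3 bases of any kind and TTCC), which 5.56% of all windows held. The Socs4 window held neither the STAT nor the interferon-response pattern. That of Socs1 held no STAT pattern, and those of Cish and Socs3 held no interferon-response pattern. A match describes letters only. In the same annotation Socs2 lies at chr10:95385362-95417180 and Socs5 at chr17:87107679-87137839 (GRCm38).

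The libraries held 6071103 to 43843615 counts, with a median of 30339856. The names of the deposited data gave the opposite treatment to the labels in 24 libraries, that is, in all 12 organoid and m-ICc12 pairs. Nfkbia, Nfkb2, Tnfaip3 and Relb, which TNF is known to induce through NF-kB, were higher in the library labelled untreated in 9 of 9 organoid cultures and 3 of 3 m-ICc12 cultures. For Nfkbia, the NF-kB inhibitor, the log2 difference was 2.66 ± 0.10 (SE, n = 9 per label) in organoids and 2.13 ± 0.23 (n = 3 per label) in m-ICc12 cells. The targets thus went against the labels, and every direction below is given between "the libraries labelled untreated" and "the libraries labelled TNF-treated". Of the library labelled TNF-treated of m-ICc12 culture M1, the smallest of all, 13.5% of counts fell on Lars2, and of that of M3 4.44%, while the top gene of the other 25 libraries took between 0.986% and 2.97%.

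Cell identity was checked with fixed marker lists. The summed level of 6 epithelial markers was 5236 to 6270 CPM (counts scaled to library size with TMM) in organoids, 1573 to 2177 in m-ICc12 cells and 8.56 to 13.3 in MEF. In m-ICc12 cells this sum came mostly from the keratins Krt8 and Krt18, whereas Epcam reached at most 7.14 CPM, Cdh1 6.79 CPM and Cldn7 2.96 CPM. Vil1 lay at 17.3 to 41.3 CPM there, against 573 to 1032 in organoids and 0.881 to 1.84 in MEF. The 6 fibroblast markers summed to 5790 to 6970 CPM in MEF, 12.3 to 32.1 in organoids and 1849 to 3009 in m-ICc12 cells, there almost all from Vim. Thy1 was at or under 3 counts in every MEF library. The 6 immune markers summed to 0.815 to 15.4 CPM in organoids and 0.0384 to 0.453 in MEF. Their sum of 65.3 to 139 CPM in m-ICc12 cells came from Csf1r, with Cd3e, Adgre1 and Itgam at or under 3 counts. As these were bulk samples, fewer cells of a type and less RNA per cell cannot be told apart.

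The first question was how the levels of the family differed between organoids, the epithelial line and fibroblasts. Socs2 was highest in organoids, 4.82-fold over m-ICc12 cells and 20.5-fold over MEF. Cish was highest in m-ICc12 cells, 12.9-fold over organoids and 6.39-fold over MEF, and Socs5 in MEF, 5.02-fold over organoids and 3.52-fold over m-ICc12 cells. Socs3 was lower in organoids than in both others, and Socs7 was highest in m-ICc12 cells. For Socs4 no difference between culture types passed the test, except without organoid culture Z917 (-0.29 to m-ICc12 cells, adjusted p = 0.043, edgeR). Libraries labelled untreated were used, and the 3 comparisons share these groups. In organoids and m-ICc12 cells these are the libraries in which the TNF targets were high, whereas for MEF names and labels did not conflict. The levels of organoids and m-ICc12 cells here and in the pathway lists below may thus not be resting levels.

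**Figure D1:**
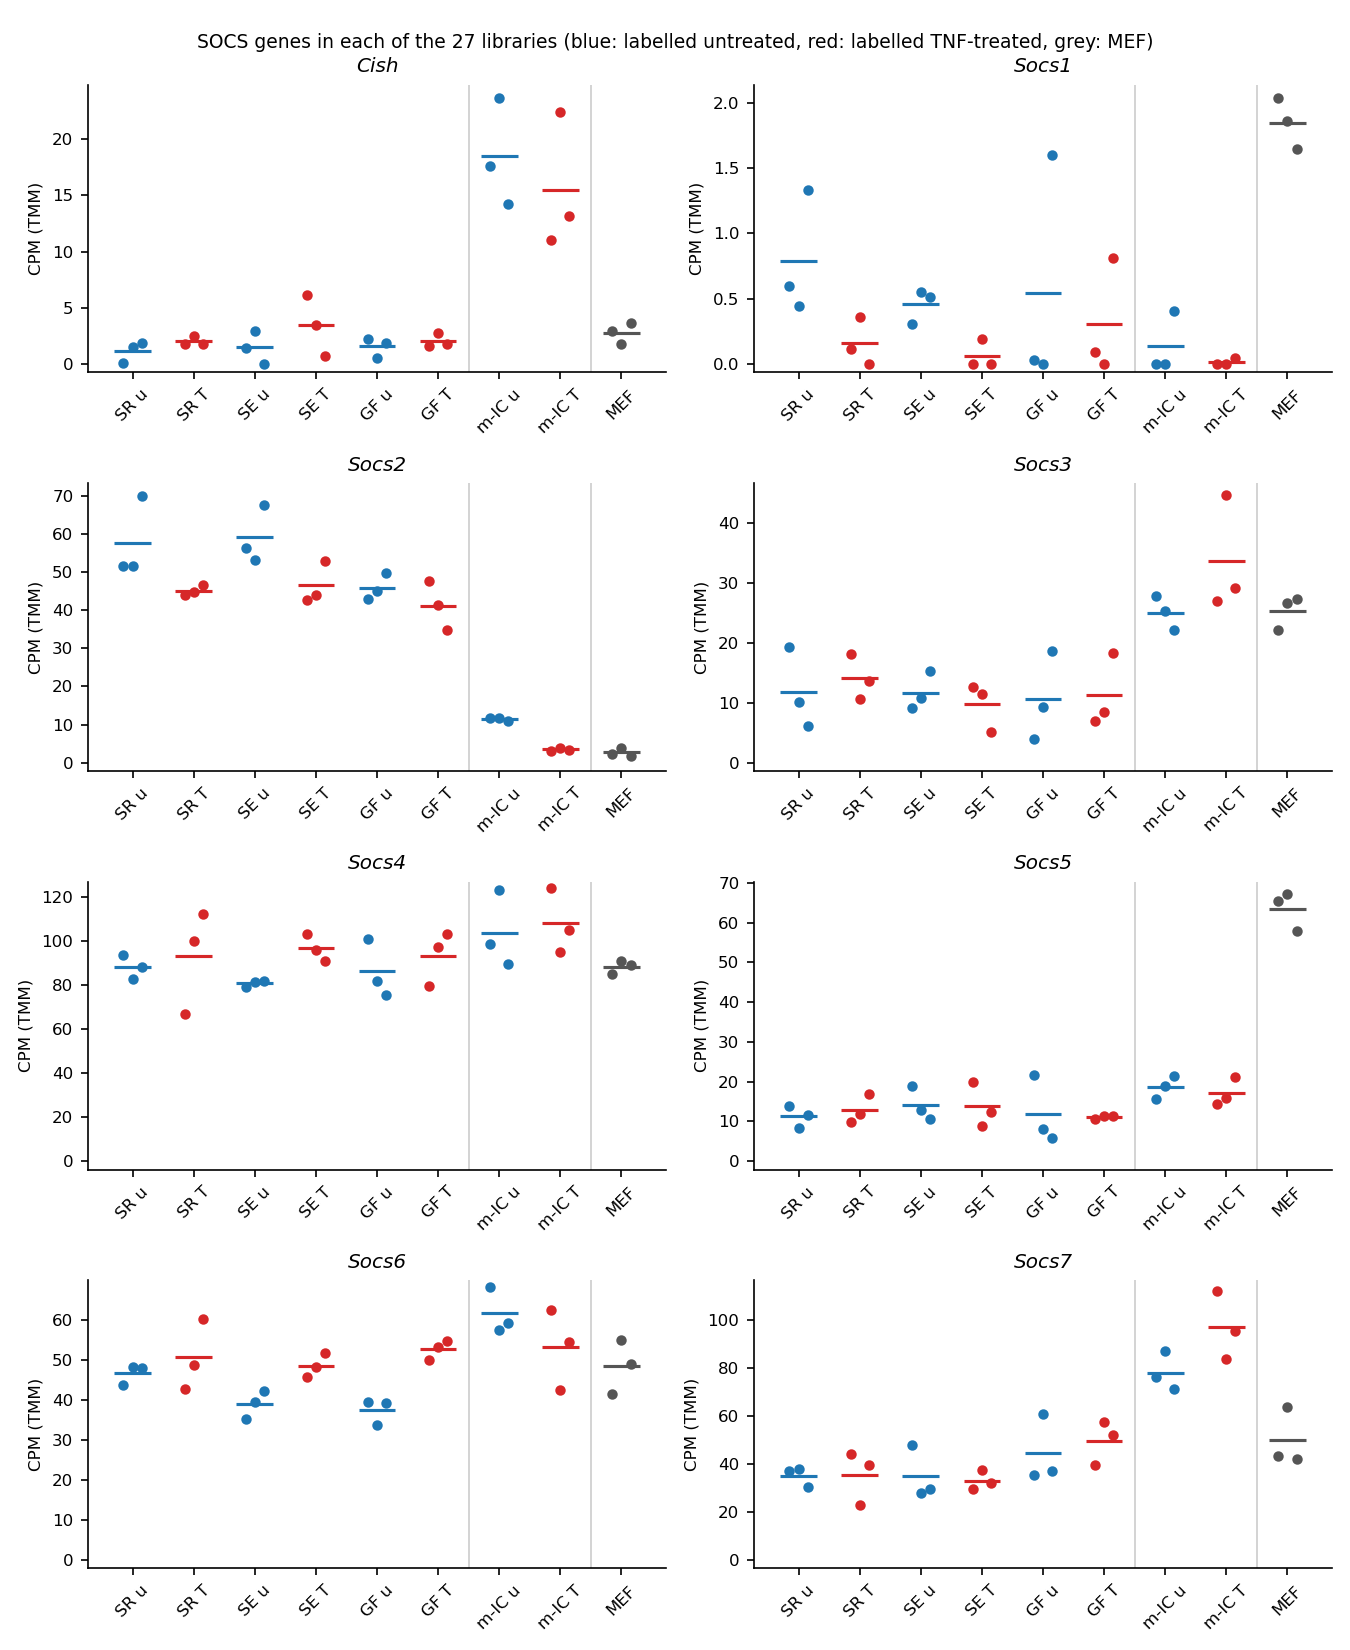
The 8 panels plot TMM-scaled CPM (y axis) of each SOCS gene in each of the 27 libraries. Points are libraries, horizontal lines are means of 3 libraries, blue marks libraries labelled untreated (u), red those labelled TNF-treated (T) and grey MEF, and m-IC stands for m-ICc12. Socs2 lies at 34.8 CPM or more in all organoid libraries and at 11.8 CPM or less in all others, while Cish is highest in m-ICc12 cells and Socs5 in MEF.

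With edgeR's quasi-likelihood test and Benjamini-Hochberg adjustment over all genes, 5 of 8 members were called between organoids and m-ICc12 cells (adjusted p under 0.05), beside 60.9% of all 12962 genes tested. Between organoids and MEF 3 of 8 were called, beside 67.2%, and between m-ICc12 cells and MEF 5 of 8, beside 59.3%. So few members can be read against these shares only roughly. The libraries of the groups did not overlap for 5, 4 and 6 of the 8 members in these comparisons, beside 49.5%, 57% and 65.5% of all genes. The median log2 fold change of the members was -0.56 for organoids over m-ICc12 cells and -0.67 for organoids over MEF, against 0.03 over all genes tested in either comparison. For m-ICc12 cells over MEF it was 0.24 against -0.05.

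Among the members that STATs induce, Socs2, which restrains growth hormone signalling, stood at 42.9 to 70.0 CPM in the organoid libraries labelled untreated, with a median of 51.7. In m-ICc12 cells the cultures M1, M2 and M3 held 11.6, 11.8 and 11 CPM, and the MEF cultures R1, R2 and R3 held 2.28, 3.93 and 1.76 CPM. No library of one culture type overlapped with another. On the log2 scale the difference was 2.27 ± 0.19 (SE, adjusted p = 2e-08, edgeR) for organoids over m-ICc12 cells, 4.36 ± 0.28 (adjusted p = 7.5e-10, edgeR) for organoids over MEF and 2.06 ± 0.40 (adjusted p = 0.00075, edgeR) for m-ICc12 cells over MEF. The label mattered here, since m-ICc12 cells held 3.14, 3.93 and 3.41 CPM in the libraries labelled TNF-treated. With these libraries the difference of m-ICc12 cells to MEF was 0.39 (adjusted p = 0.6, edgeR, with 6.8e-09 to 0.6 over all alternatives), and that of organoids to m-ICc12 cells was 3.64.

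Cish, the first known STAT5-induced member, was low in organoids, with 0.0397 CPM at the lowest, a median of 1.48 and 2.97 at the highest in the libraries labelled untreated, which rested on 1 to 91 counts. The m-ICc12 cultures M1, M2 and M3 held 17.6, 23.7 and 14.2 CPM, and the MEF cultures R1, R2 and R3 held 2.9, 1.81 and 3.68 CPM. Every m-ICc12 library lay above every organoid and MEF library, while organoids and MEF overlapped. The log2 difference of organoids to m-ICc12 cells was -3.69 ± 0.75 (adjusted p = 0.00045, edgeR), that of m-ICc12 cells to MEF 2.68 ± 0.37 (adjusted p = 4.3e-05, edgeR), and that of organoids to MEF -0.97 ± 0.92 did not pass (adjusted p = 0.364, edgeR). Cish overlaps the genes Gm17040 and Gm17041 on the opposite strand, which were not among the genes of the tables. Whether the counting used strand was not given in the sources used here.

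Socs1, the inhibitor of interferon-gamma signalling, was near the limit of detection. It reached at most 1.6 CPM in organoids, and 7 of 18 organoid libraries held 3 counts or fewer. In m-ICc12 cells it was at 0 in 4 of 6 libraries, at 17 counts (0.409 CPM) in the library labelled untreated of M3 and at 1 count in its partner. MEF held it in all 3 libraries, at 2.04, 1.86 and 1.65 CPM. The MEF libraries lay above all organoid and m-ICc12 libraries. The fitted log2 difference of m-ICc12 cells to MEF of -3.75 ± 1.37 (adjusted p = 0.032, edgeR) rested on libraries without a count, so that its size depends on the prior count. It lost its call without M1, M2, R1, R2 or R3, with adjusted p between 0.067 and 0.094 (edgeR), and it was -9.15 without M3. Against m-ICc12 cells the organoids were at 2.11 ± 1.63 (adjusted p = 0.275, edgeR), and at 7.13 without M3 (adjusted p = 0.031, edgeR). Against organoids the difference to MEF of -1.61 ± 1.02 was not called (adjusted p = 0.175, edgeR). With the libraries labelled TNF-treated it was -3.31 (adjusted p = 0.014, edgeR).

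Socs3, which binds the shared receptor chain gp130 and restrains the IL-6 family and IL-22, ran from 3.87 to 19.3 CPM in organoids labelled untreated, with a median of 10.1. It held 27.9, 25.3 and 22.1 CPM in the m-ICc12 cultures M1, M2 and M3, and 22.2, 26.7 and 27.4 CPM in the MEF cultures R1, R2 and R3. All organoid libraries lay below both reference cultures, which overlapped. The log2 difference of organoids was -1.11 ± 0.38 to m-ICc12 cells (adjusted p = 0.018, edgeR) and -1.14 ± 0.37 to MEF (adjusted p = 0.014, edgeR). The first was not called without M1 (-1.02, adjusted p = 0.069, edgeR) or without M2 (-1.10, adjusted p = 0.051, edgeR).

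The other members are less tied to STATs. Socs4 and Socs5 are known to lower the epidermal growth factor receptor. Socs4 was even across cultures, at 75.4 to 101 CPM in organoids labelled untreated, 89.6 to 123 in m-ICc12 cells and 85.2 to 90.8 in MEF. Socs5 ran from 5.85 to 21.8 CPM in organoids labelled untreated, with a median of 11.5. It held 15.6, 18.8 and 21.4 CPM in M1, M2 and M3, and 65.5, 67.2 and 57.8 CPM in R1, R2 and R3. The MEF libraries thus stood apart from organoids and m-ICc12 cells, which overlapped. Its log2 difference was -2.33 ± 0.29 for organoids over MEF (adjusted p = 3.1e-06, edgeR) and -1.82 ± 0.18 for m-ICc12 cells over MEF (adjusted p = 2e-06, edgeR).

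Socs6 and Socs7 act on insulin and growth factor receptor signalling. Socs7 ran from 27.8 to 60.8 CPM in organoids labelled untreated, with a median of 37, against 76, 86.9 and 71.2 CPM in M1, M2 and M3 and 43.4, 63.6 and 42.2 CPM in R1, R2 and R3. Those of organoids and MEF overlapped (-0.36 ± 0.22, adjusted p = 0.154, and 0.033 without Z918, edgeR). The m-ICc12 libraries were above all others, at a log2 difference of -1.01 ± 0.20 for organoids over m-ICc12 cells (adjusted p = 0.00031, edgeR) and 0.61 ± 0.18 for m-ICc12 cells over MEF (adjusted p = 0.01, edgeR). Socs6 held 33.7 to 48.3 CPM in organoids labelled untreated and 57.5 to 68.1 in m-ICc12 cells, without overlap, a log2 difference of -0.56 ± 0.14 (adjusted p = 0.0024, edgeR). This call was lost with the libraries labelled TNF-treated, where the difference was -0.06 (adjusted p = 0.69, edgeR). MEF, at 41.4 to 54.8 CPM, overlapped with the organoids. The span of Socs6 overlaps the processed pseudogenes AC122398.2 and AC122398.3 on the same strand and AC118614.1 on the opposite strand. Like the genes that overlap Cish, these were not among the genes of the tables.

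**Figure D2:**
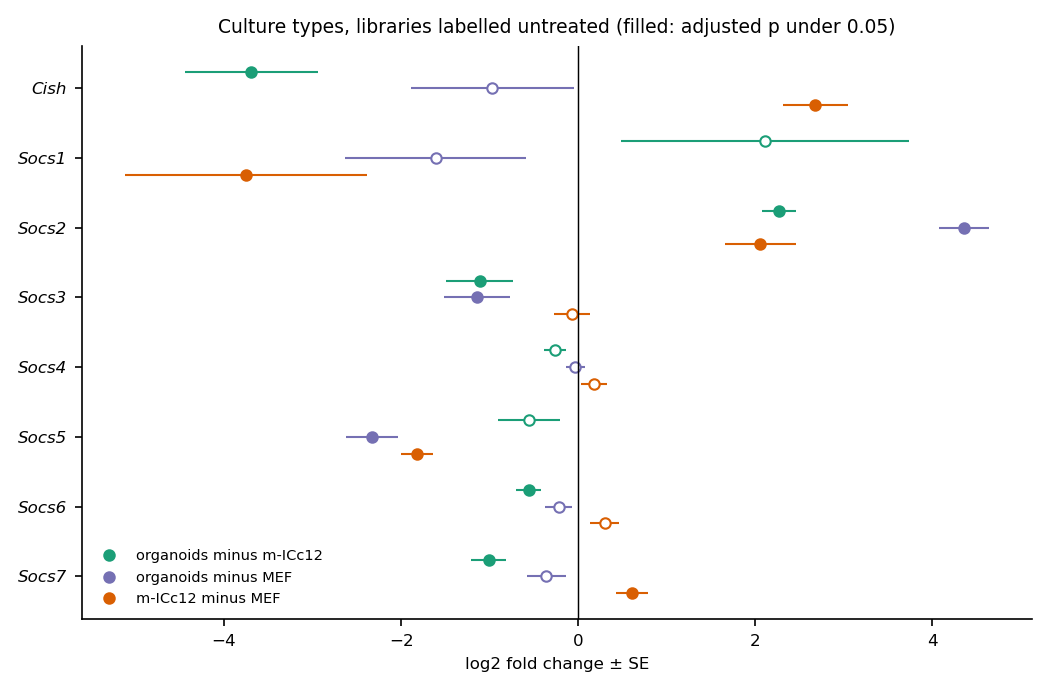
The log2 fold change (x axis) with its SE is plotted for each SOCS gene (y axis) in the 3 comparisons of culture types, from libraries labelled untreated (9 organoid, 3 m-ICc12) and 3 MEF libraries. Filled points passed an adjusted p of 0.05. Socs2 lies to the right in all 3 comparisons, and the Socs4 points stay within 0.26 of 0.

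Divided by the joined length of the exons of all annotated transcripts, levels can be set against each other between genes only roughly. This length was 9531 bases for Socs2 (14 transcripts), 11349 for Socs6 (9 transcripts) and 6877 for Socs4 (2 transcripts). Which transcripts the cells held was not tested, and shorter ones would raise a gene's level. The ranks below hold for this measure. Socs4 was the most abundant member per kilobase in organoids labelled untreated, with 12.4 ± 1.15 CPM per kb (SD, n = 9). Then came Socs2 with 5.7 ± 0.967, Socs7 with 5.25 ± 1.42, Socs3 with 3.94 ± 1.84 and Socs6 with 3.62 ± 0.447 CPM per kb, whose ranges over libraries overlapped from each to the next. Socs5 followed with 1.94 ± 0.806 CPM per kb, overlapping with Socs6, and at the bottom Cish with 0.218 ± 0.156 and Socs1 with 0.206 ± 0.185 CPM per kb, which overlapped. Socs4 also led in m-ICc12 cells, with 15.1 ± 2.51 CPM per kb (n = 3), and in MEF, with 12.8 ± 0.413 (n = 3). Socs2, the second in organoids, was the seventh in m-ICc12 cells with 1.2 ± 0.0444 CPM per kb and the last in MEF with 0.279 ± 0.119 CPM per kb. Socs5 was the second in MEF, with 9.9 ± 0.777 CPM per kb.

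Between organoid cultures the members varied unequally. Among the 9 organoid libraries with the label untreated, the SD of CPM as a share of its mean was 9.28% for Socs4, 12.4% for Socs6 and 17% for Socs2, and it was 46.7% for Socs3, 71.4% for Cish and 90.3% for Socs1. Cish rested on 1 to 91 and Socs1 on 0 to 36 counts there, so that counting error adds to their spread. Socs3 was highest in the cultures Z908 (19.3 CPM) and Z919 (18.6 CPM) and lowest in Z917 (3.87 CPM). In the libraries labelled TNF-treated Z908 and Z919 were again highest, with 18.1 and 18.4 CPM, and the lowest was Z913, with 5.17 CPM against 15.3 CPM in its partner. Across the 18 organoid libraries the members showed no common course: Pearson's r of log2 CPM between members lay between -0.47 (Cish and Socs2) and 0.57 (Socs4 and Socs6). The genes most like Socs2 there were Acbd4 (r = 0.81), Stard5 (r = 0.76) and Cd74 (r = 0.73). Those most like Cish were Seh1l (r = 0.91), D10Wsu102e (r = 0.87) and Rev3l (r = 0.87), those most like Socs3 were Ehmt2 (r = 0.87), Wnk2 (r = 0.86) and Map3k11 (r = 0.80), and those most like Socs1 were Cbx6 (r = 0.80), Nav2 (r = 0.78) and Adora1 (r = 0.76). For Socs4, Socs5, Socs6 and Socs7 the highest r was 0.79 (Orc5), 0.79 (Klf9), 0.79 (Cerk) and 0.78 (Parp4). These r describe 18 libraries from 9 mice that share culture, label and depth. Those of the named genes were picked as the highest among all genes above background, and no reference for such a choice was computed. Cish, at 1 to 109 counts, and Socs1, at 0 to 36 counts, lie near the floor, which limits their r.

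The second question was whether the family differed between the treatment labels. In organoids none of the 8 members passed the adjusted test (edgeR), beside 1.39% of all 12104 genes tested, and 2 had an unadjusted p under 0.05, beside 8.86% of all genes. When the culture was entered as a block, 397 genes in place of 168 were called and still no member. Socs2 was higher in the libraries labelled untreated, the label under which the TNF targets were high, in 8 of 9 cultures. It ran from 42.9 to 70.0 CPM (median 51.7) in these and from 34.8 to 53 CPM (median 44.1) in the libraries labelled TNF-treated, and these ranges overlapped. The log2 difference was 0.30 ± 0.11 (adjusted p = 0.278, edgeR, and 0.13 to 0.51 over the alternatives). Only culture Z917 went the other way, from 42.9 to 47.6 CPM. Socs6 was lower in the libraries labelled untreated in 8 of 9 cultures, at 33.7 to 48.3 CPM against 42.8 to 60.1. The ranges overlapped, and the log2 difference was -0.30 ± 0.10 (adjusted p = 0.199, edgeR, and 0.1 to 0.42 over the alternatives).

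Socs3, often named as an inflammatory feedback gene, was at 11.4 ± 5.32 CPM (SD, n = 9) under the label untreated and 11.7 ± 4.58 CPM under the label TNF-treated. Its log2 difference was -0.03 ± 0.28, and 4 of 9 cultures were higher in the library labelled untreated. Socs1 was higher in 7 of 9 cultures and lower in 1, and Cish lower in 6 of 9. Their log2 differences of 1.69 ± 1.01 and -0.83 ± 0.64 rested on few counts and were not called (adjusted p = 0.72 and 0.833, edgeR). Of Socs4, Socs5 and Socs7 the log2 differences lay between -0.14 and -0.01. The summed level of 3 stem cell markers (Lgr5, Olfm4 and Ascl2) was 227 to 954 CPM in the libraries labelled TNF-treated and 679 to 2134 CPM in those labelled untreated. All 3 were detected under both labels, the ranges overlapped, and Olfm4 alone spanned 129.5 to 1884 CPM over all organoid libraries. That of 3 enterocyte markers was 111 to 873 and 214 to 1212 CPM in the same order. Goblet markers summed to 1112 to 1692 and 1136 to 1547 CPM, and Paneth markers to 107 to 240.5 and 103 to 297 CPM. Enteroendocrine markers summed to 85.9 to 175 and 118 to 202 CPM, and tuft markers to 3.67 to 9.97 and 5.5 to 13.7 CPM. All these ranges overlapped between the labels, and no marker sum was tested. The part of these cell types in the values of Socs2 and Socs6 was not tested.

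**Figure D3:**
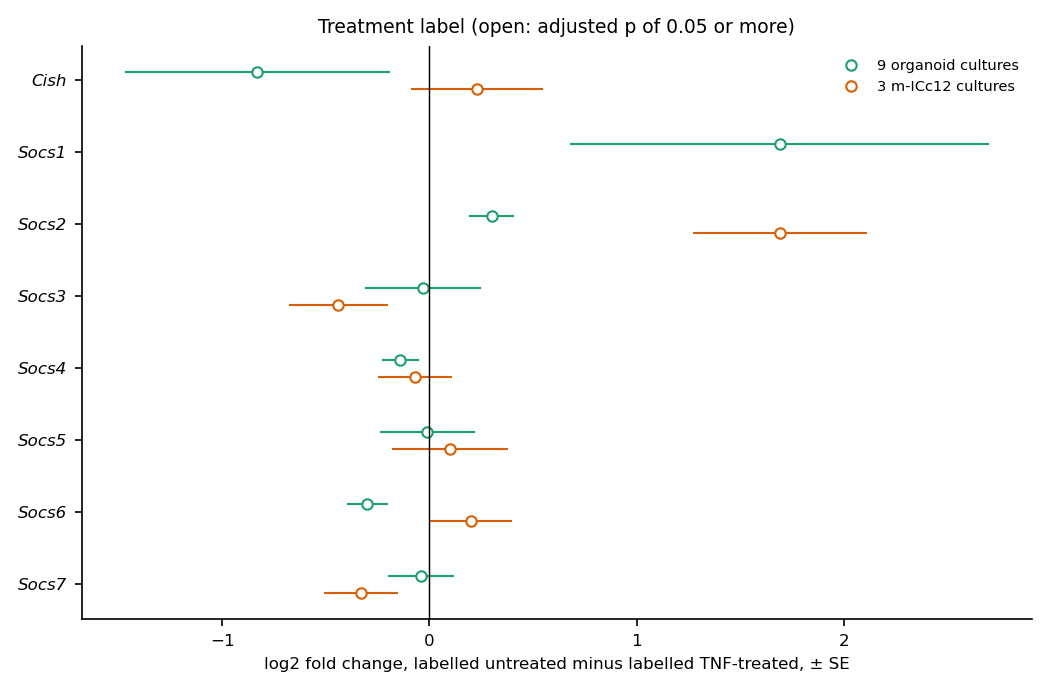
The log2 fold change of libraries labelled untreated over libraries labelled TNF-treated (x axis) with its SE is plotted for each SOCS gene (y axis) in 9 organoid cultures (green) and 3 m-ICc12 cultures (orange). All points are open, since none passed an adjusted p of 0.05, and Socs2 in m-ICc12 cells lies at 1.69, with Socs1 not tested there.

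In m-ICc12 cells Socs2 differed between the labels in all 3 cultures. M1 held 11.6 CPM (397 counts) in the library labelled untreated and 3.14 CPM (18 counts) in the one labelled TNF-treated, M2 held 11.8 (538 counts) and 3.93 CPM (146 counts), and M3 held 11 (457 counts) and 3.41 CPM (71 counts). The labels did not overlap, as for 9.38% of all 11861 genes tested. The libraries labelled untreated were thus 3.23-fold higher, a log2 difference of 1.69 ± 0.42 (SE), the only one among the 7 members tested with an unadjusted p under 0.05, beside 4.69% of all genes. In the fit of the 6 m-ICc12 libraries alone this was not called (adjusted p = 0.362, edgeR), and none of the 7 members was, beside 0.11% of all genes. With the same value, DESeq2 called it (adjusted p = 0.011), as did edgeR with all 27 libraries in the fit (adjusted p = 0.00017), and over all alternatives the adjusted p ran from 0.00017 to 1. In the fit of all 27 libraries the spread was pooled mostly from organoid and MEF libraries. M2, whose libraries held 43843615 and 36135139 counts and in which Lars2 was not the top gene, showed a log2 difference of 1.57 by itself, M1 1.87 and M3 1.67.

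The other members tested in m-ICc12 cells lay closer together. Socs3 was at 27.9, 25.3 and 22.1 CPM under the label untreated and at 27, 44.7 and 29.2 CPM under the label TNF-treated in M1, M2 and M3, a log2 difference of -0.44 ± 0.24 (adjusted p = 0.996, edgeR). The groups overlapped, as they did for Cish, Socs4, Socs5, Socs6 and Socs7, with log2 differences between -0.33 and 0.23. Socs1 was not tested, having passed 10 counts in 1 library only.

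Whether the label difference itself was unequal between organoids and m-ICc12 cells was tested as an interaction over the 24 libraries. Of the 8 members 1 was called, Socs2, beside 0.159% of all 13183 genes tested (21 genes, and 103 under the replicate block). The difference in organoids was smaller than that in m-ICc12 cells by -1.39 ± 0.22 on the log2 scale (adjusted p = 0.0031, edgeR). This SE rests on a single spread per gene pooled over all 24 libraries, most of them from organoids. In the m-ICc12 libraries alone, the label difference of Socs2 had an SE of 0.42 and was not called. The interaction stayed called without any 1 of the 12 cultures, at -1.47 to -1.33 with adjusted p between 0.0046 and 0.024 (edgeR). It was -1.41 with the culture as a block (adjusted p = 0.003, edgeR). These alternatives pool the spread in the same way, so they cannot show whether the call holds on the m-ICc12 spread alone. Socs6 came next, with -0.51 ± 0.19 (adjusted p = 0.557, edgeR), and these 2 members had an unadjusted p under 0.05, beside 6.5% of all genes. The members' median was -0.32 against 0.00 over all genes.

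**Figure D4:**
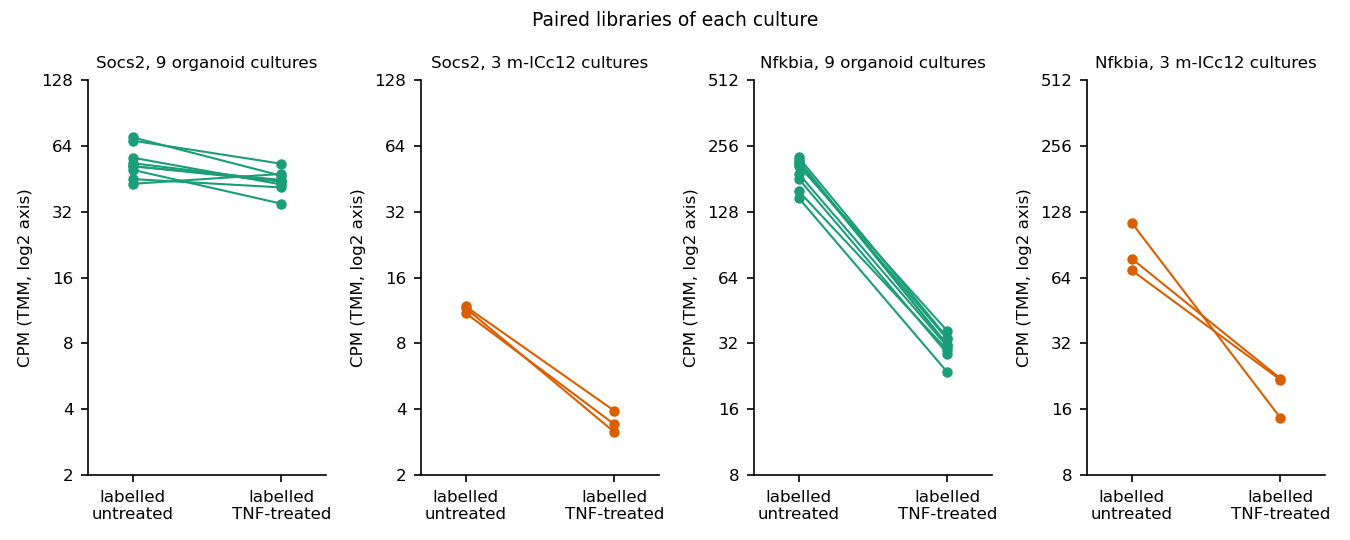
Each line joins the 2 libraries of 1 culture, with CPM on a log2 y axis and the treatment label on the x axis, for Socs2 (left panels) and the NF-kB target Nfkbia (right panels) in 9 organoid (green) and 3 m-ICc12 cultures (orange). Socs2 falls from 11 to 11.8 CPM to 3.14 to 3.93 CPM in m-ICc12 cells, whereas its organoid lines are flat or slope a little, and Nfkbia falls in all 12 cultures.

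The third question was whether the origin of the organoids mattered. The mice of a facility were littermates that shared housing, so that litter, facility and germ-free status cannot be told apart. In SPF organoids (SR and SE) 0 of 8 members were called between the labels, beside 0.818% of 12352 genes tested (101 genes, and 244 with the culture as a block), and 1 had an unadjusted p under 0.05, beside 7.5%. This was Socs2, at 0.35 ± 0.12 on the log2 scale (adjusted p = 0.36, edgeR). In germ-free organoids 0 of the 7 tested were called, beside 0.122% of 12316 genes (15 genes, and 109 with the block), with Socs2 at 0.16 ± 0.19 and Socs6 at -0.48 ± 0.18 (adjusted p = 0.999, edgeR), the only 1 with an unadjusted p under 0.05, beside 3.95% of all genes. Both comparisons use libraries of the organoid comparison above. Socs6 was at 39.4, 33.7 and 39.3 CPM in Z917, Z918 and Z919 under the label untreated and at 50, 53.2 and 54.6 CPM under the label TNF-treated, without overlap, as for 9.16% of all genes tested there. The SPF and germ-free differences were compared by an interaction, in which neither a member nor any other of 12640 genes was called (0%). An unadjusted p under 0.05 was found for 323 genes (2.56%), none of them a member, and DESeq2 called 1 gene. For Socs2 this interaction was 0.19 ± 0.20 and for Socs6 0.28 ± 0.20 on the log2 scale.

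Among the libraries labelled untreated, germ-free and SPF organoids did not differ in any of the 8 members at an adjusted p of 0.05, beside 0.0325% of 12315 genes, and 1 had an unadjusted p under 0.05, beside 3.99%. Socs2 came closest: Z917, Z918 and Z919 held 42.9, 45.1 and 49.7 CPM, below all 6 SPF cultures at 51.6 to 70.0 CPM (median 54.9). The log2 difference was -0.35 ± 0.16 (adjusted p = 1, edgeR), and groups without overlap were found for 2.14% of all genes. Under the label TNF-treated the germ-free cultures, at 34.8 to 47.6 CPM, overlapped with the SPF cultures, at 42.6 to 53 CPM. Between the facilities SR and SE none of the 8 members was called, nor any other of 12219 genes (0%). An unadjusted p under 0.05 was found for 486 genes (3.98%) and no member, and DESeq2 called 8 genes. Socs4 and Socs6 were higher in all 3 SR cultures than in all 3 SE cultures, where 9.16% of all genes had groups without overlap, at log2 differences of 0.13 ± 0.16 and 0.26 ± 0.20.

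The pathway around the family was described from fixed lists. In organoids 2 of 20 tested cytokine and growth factor receptors were called between the labels, both higher in the libraries labelled untreated. Of all 12104 genes tested there, 1.39% were called, and 1.26% were called and higher under that label. Lists this short can be read against these shares only roughly. Ifngr1, the interferon-gamma receptor chain, was at 221 ± 24.4 against 176 ± 11.9 CPM (SD, n = 9 per label), a log2 difference of 0.34 ± 0.07 (SE). Il6st, which encodes gp130, was at 58.2 ± 6.45 against 43.1 ± 5.64 CPM, a log2 difference of 0.44 ± 0.10. Of 10 tested genes known as immediate STAT targets 2 were called, Irf1 and Bcl3, with log2 differences of 1.39 ± 0.18 and 1.42 ± 0.15, and both are also known NF-kB targets. None of the 4 JAKs, 6 STATs, 7 ligands, 11 other negative regulators, 6 elongin-cullin partners and 14 other SOCS-box proteins tested was called. In m-ICc12 cells no gene of any of these lists was called between the labels, beside 0.11% of all genes. None was called in the interaction of organoids and m-ICc12 cells either, beside 0.159%.

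Between culture types, where 60.9% of all genes were called for organoids against m-ICc12 cells and 67.2% for organoids against MEF, many genes of the lists were called too. The prolactin receptor Prlr, whose signal runs through JAK2 and STAT5, was at 203 ± 25.3 CPM (SD, n = 9) in organoids labelled untreated, at 0.287 ± 0.134 (n = 3) in m-ICc12 cells and at 0.367 ± 0.116 (n = 3) in MEF. Organoids were thus higher by 9.50 ± 0.27 and 9.16 ± 0.23 on the log2 scale. The growth hormone receptor Ghr, named after its values were seen, ran the other way, with 25.7 ± 5.54 CPM in organoids, 119 ± 16 in m-ICc12 cells and 71.7 ± 3.63 in MEF. Il6st was lower in organoids than in m-ICc12 cells (215 ± 34.6 CPM) (-1.86 ± 0.12 on the log2 scale) and than in MEF at 357 ± 70.6 CPM (-2.59 ± 0.12), and was thus lowest in organoids, as was Socs3. The LIF receptor Lifr was at or under 3 counts in all organoid libraries labelled untreated and at 32.3 ± 8.99 CPM in m-ICc12 cells, at least 278-fold higher against a floor of 3 counts. MEF held Lifr too, at 22.1 ± 1.58 CPM. Il22ra1, the epithelial IL-22 receptor chain, was at 22.4 ± 6.01 CPM in organoids and at or under 3 counts in all MEF libraries, at least 256-fold higher in organoids. In the epithelial line m-ICc12 Il22ra1 was low as well, at 0.202 ± 0.235 CPM. Of 23 receptors tested, 8 were higher and 9 lower in organoids than in m-ICc12 cells, and 10 higher and 8 lower than in MEF. Of all genes tested, 31.6% were higher and 29.3% lower in the first comparison, and 34.6% and 32.6% in the second.

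The kinases and transcription factors of the pathway differed too. Jak2 was at 65.5 ± 11.7 CPM (SD, n = 9) in organoids and at 199.9 ± 20.2 (n = 3) in m-ICc12 cells, a log2 difference of -1.58 ± 0.14, and Tyk2 was higher in organoids by 1.31 ± 0.17. Stat3 and Stat5b were lower in organoids than in m-ICc12 cells by -1.18 ± 0.15 and -0.85 ± 0.21. Against MEF, 3 of 4 JAKs were higher in organoids, among them Tyk2 (1.42 ± 0.16) and Jak3 (3.63 ± 0.55), and Jak1 was lower (-1.01 ± 0.14). Stat5b, the main STAT of growth hormone and prolactin signals, was at 19.2 ± 4.01 CPM in organoids, 35.1 ± 0.554 in m-ICc12 cells and 68.8 ± 12 in MEF, an order opposite to that of Socs2. Cish, with means of 1.4, 18.5 and 2.8 CPM in these cultures, followed neither order, and a link between these levels was not tested. Stat4 had no count in the libraries shown. Among the partners of the SOCS box, Cul5 was lower in organoids than in m-ICc12 cells (-0.62 ± 0.15) and than in MEF (-1.08 ± 0.14), and 4 of 6 partners were lower against m-ICc12 cells and 5 of 6 against MEF, beside 29.3% and 32.6% of all genes. Elob, which encodes elongin B, was the 1 partner called higher in organoids than in m-ICc12 cells (0.58 ± 0.16), and none was called higher against MEF. Of other negative regulators, the phosphatase gene Ptpn1 was lower in organoids than in both (-1.74 ± 0.15 and -1.35 ± 0.16), whereas Ptpn2, another phosphatase gene, was higher in organoids than in m-ICc12 cells (1.22 ± 0.19). Of the regulators tested, 1 of 13 was called higher and 5 lower against m-ICc12 cells, and 2 of 12 higher and 7 lower against MEF. The median log2 fold change over m-ICc12 cells was -0.44 for JAKs, -0.31 for STATs, -0.39 for receptors, -0.45 for other negative regulators and -0.54 for elongin-cullin partners, against 0.03 for all genes.

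**Figure D5:**
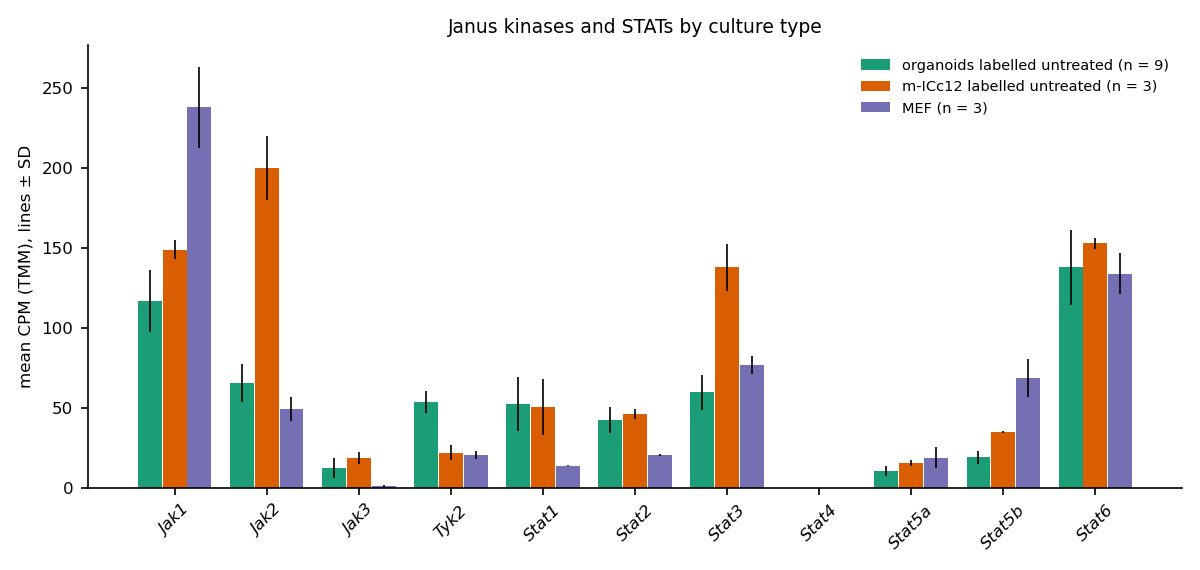
Bars give the mean TMM-scaled CPM (y axis, from 0) of the 4 Janus kinases and 7 STATs in 9 organoid and 3 m-ICc12 libraries labelled untreated and in 3 MEF libraries, with lines of 1 SD. Jak2 and Stat3 are highest in m-ICc12 cells, Jak1 and Stat5b in MEF and Tyk2 in organoids, and Stat4 is at 0.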

How the data were processed

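Reads were processed by the authors: per the study's methods and processing notes, adapters were removed with Trimmomatic, the reads were trimmed and aligned to GRCm38 (Ensembl) with STAR, and reads per gene were counted. The methods and the notes differ on the counter (GenomicRanges or featureCounts) and on the STAR version (the notes give 2.5.4b). The kit was stranded per the labels, whereas the methods name a TruSeq RNA preparation kit and do not call it stranded. How strand and multiply mapped reads were treated is not given in the sources used here. The deposited values are whole-number counts per gene, without normalization, in 27 libraries. Symbols were matched for 22214 of 22524 genes.

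The members and lists were chosen with earlier results of these data known. Groups follow the labels. Each comparison held the libraries compared. Genes were tested where 50% or more of the libraries of one group held 10 counts or more, with edgeR 4.0.16 (R 4.3.3; TMM, quasi-likelihood F-test, no covariate, two-sided) and Benjamini-Hochberg adjustment over all of them, with a threshold of 0.05. SE is the log2 fold change divided by the root of F. CPM used TMM factors over all 27 libraries. Genes with 3 counts or fewer were taken as at the floor, which covers counting error only. The prior count of log2 CPM in correlations was 2. All 8 members are named throughout. Of the lists, genes called between labels (up to 5) and the 3 with the smallest p per culture type comparison were eligible, and for each member the 3 genes of highest r.

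Libraries of 1 organoid culture come from 1 mouse, and their deviations from the label means correlated with a mean r of 0.171 (0.0821 to 0.311 over 9 pairs). Alternatives were DESeq2 1.42.0, no filter, all 27 libraries in 1 fit, each culture left out, the facility as a covariate, a block for culture, the libraries labelled TNF-treated, and summed libraries. Scripts were tested on simulated data. Gene models are GENCODE vM21, promoters RefSeq, and Python 3.11.15 was used.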

Additional observations from a re-analysis of the deposited data

Results flagged for a closer look

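The Cish level of organoid culture Z911 in the library labelled TNF-treated was 6.16 CPM, while the 8 other cultures held 0.749 to 3.47 CPM, a gap of 0.496 of the whole range. The Socs1 level of culture Z919 under the same label was 0.816 CPM, against 0 to 0.362 CPM in the others, a gap of 0.556 of the range, with 29 counts. In all, 16 groups of 9 libraries were screened in this way (critical value 0.493), and chance singles out about 1 in 20. Both genes lie near the detection limit in organoids, and the causes were not tested. The label difference of Socs2 was unequal between organoids and m-ICc12 cells, with an interaction of -1.39 on the log2 scale (adjusted p = 0.0031, edgeR). The spread behind this p-value was pooled over organoid and m-ICc12 libraries. Lars2 took 13.5% and 4.44% of counts in 2 of the 3 m-ICc12 libraries labelled TNF-treated, and without their cultures M1 and M3 in turn the interaction was -1.33 and -1.39.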

How the results depend on the processing

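Across alternatives that leave out no culture, 369 single-gene values kept direction and side of the threshold, 13 changed sign, 4 gained and 3 lost a call. Leaving out cultures in turn, 624 kept both, 56 changed sign, 3 gained and 7 lost a call. Between the labels in m-ICc12 cells the count of members called went from 0 to 1 with DESeq2 and to 1 with all 27 libraries in 1 fit, both times Socs2. With the libraries labelled TNF-treated it went from 5 to 4 for organoids against m-ICc12 cells, from 3 to 4 for organoids against MEF and from 5 to 4 for m-ICc12 cells against MEF. It was also 4 for organoids against MEF with summed libraries and 4 for m-ICc12 cells against MEF with all 27 libraries. Without 1 culture it was 4 to 6 of organoids against m-ICc12 cells, 3 to 4 of organoids against MEF and 4 to 5 of m-ICc12 cells against MEF. The signs that changed belong to log2 differences that were not called, and the cause was not tested.

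With the libraries labelled TNF-treated, organoids against MEF gave 0.10 for Socs4 and 0.07 for Socs6, m-ICc12 cells against MEF 0.41 for Socs3, germ-free against SPF -0.41 for Cish, -0.03 for Socs4 and 0.08 for Socs6, and SR against SE -0.06 for Socs4. With both libraries of a culture summed, these were 0.06 for Socs4 against MEF, 0.18 for Socs3, and -0.05 for Cish and 0.15 for Socs1 in germ-free against SPF. Summed, Socs1 of organoids against MEF was called (-2.30, adjusted p = 0.029, edgeR). Socs1 of m-ICc12 cells against MEF was not called with all 27 libraries (-3.71, adjusted p = 0.098, edgeR).

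With the replicate block, Socs5 was -0.14 between the labels in germ-free organoids and 0.08 in the interaction of SPF and germ-free organoids. The block changed no call of a member. In m-ICc12 cells, whose libraries share a number only (mean r 0.0311 over 3 pairs), the block gave 6 called genes in place of 13 and an adjusted p of 0.75 for Socs2 (edgeR).

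Leaving out cultures in turn, the following log2 differences reached both signs or 0. Between the labels in all organoids, Socs3 ran from -0.19 to 0.08, Socs5 from -0.18 to 0.07 and Socs7 from -0.13 to 0.03. In SPF organoids Socs3 ran from -0.26 to 0.16, Socs5 from -0.16 to 0.05 and Socs7 from -0.11 to 0.13. In germ-free organoids Cish ran from -0.89 to 0.28, Socs2 from 0.00 to 0.33, Socs3 from -0.21 to 0.07, Socs4 from -0.33 to 0.06, Socs5 from -0.69 to 0.46 and Socs7 from -0.34 to 0.00. In m-ICc12 cells Socs4 ran from -0.31 to 0.08. In the interaction with m-ICc12 cells Socs1 ran from -1.38 to 1.71 and Socs4 from -0.23 to 0.14. In that of SPF and germ-free organoids Socs3 ran from -0.17 to 0.25, Socs4 from -0.22 to 0.17 and Socs5 from -0.51 to 0.63. In germ-free against SPF organoids Cish ran from -0.14 to 0.66, Socs1 from -4.94 to 0.36, Socs3 from -0.84 to 0.24, Socs4 from -0.11 to 0.11 and Socs5 from -0.87 to 0.24. In SR against SE Cish ran from -0.94 to 0.63, Socs2 from -0.19 to 0.08, Socs3 from -0.52 to 0.33 and Socs7 from -0.13 to 0.29. Socs3 of m-ICc12 cells against MEF ran from -0.14 to 0.03.

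Counts of all genes called depended more on the tool. DESeq2 called 46 genes between the labels in m-ICc12 cells (25 higher, 21 lower, against 11 and 2), 167 in SPF and 51 in germ-free organoids, 71 in the interaction with m-ICc12 cells and 21 in germ-free against SPF organoids (7 higher, 14 lower, against 3 and 1). In m-ICc12 cells 30 were called without a filter, 28 with all 27 libraries and 93 without M2. In SPF organoids 56 were called without Z909 and 65 without Z912, and in germ-free organoids 23 with all 27 libraries and 5 without Z917. In the interaction with m-ICc12 cells 40 were called without M3 and 11 without M2. In germ-free against SPF organoids 9 were called with all 27 libraries, 7 summed, and 2 without Z917, Z918 or Z919. In SR against SE 5 were called without a filter, 35 without Z909 and 6 without Z912, and 1 each summed, with the libraries labelled TNF-treated and without Z908. Low counts limit Cish and Socs1 in organoids and Socs1 in m-ICc12 cells.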
